A study of Homo sapiens with 9 samples.

Results

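The 10 genes described here encode the core of mTOR complex 1 (mTORC1) and the proteins that switch it on or off: MTOR, RPTOR, DEPTOR, RHEB, TSC1, TSC2, DDIT4, SESN1, SESN2 and EIF4EBP1. They were taken as a list of symbols, with no threshold on a measured value, though earlier results of these data were known when the list was made. Each symbol belonged to 1 of the 64253 gene identifiers in the deposited count files, and all 10 were among the 16561 genes that passed the filter on low counts. RNA was measured in 9 libraries of IMR90, a line of human fetal lung fibroblasts with a limited lifespan in culture, as 3 groups with 3 replicates each, lettered a to c. All cells were kept at 2% oxygen, used at population doubling 30, infected with a lentivirus and again 24 hours later, and selected with puromycin at 3 ug/mL for 7 days. Control cells carried pLKO.1 without a gene-directed hairpin, an empty vector in the sample labels and a GFP vector in the treatment protocol. The shRRM2 cells carried a hairpin against RRM2, a subunit of the reductase that makes deoxyribonucleotides, and are labelled senescent. The shRRM2/shp16 cells carried that hairpin and another against p16, a brake on the cell cycle made from CDKN2A, and are labelled as a bypass of senescence. Each gene was targeted with a single hairpin, and there was no group with the p16 hairpin alone. The labels do not say whether libraries of a group came from separate cultures, so p-values measure the spread between these libraries, which may be technical.

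mTORC1 is a protein kinase complex at the lysosome that promotes protein, lipid and nucleotide synthesis and restrains autophagy when nutrients and growth factors are present. MTOR is the kinase, RPTOR the scaffold that brings in substrates, and DEPTOR an inhibitor bound to the complex. The small GTPase RHEB activates the kinase, and TSC1 and TSC2 form the complex that turns RHEB off. DDIT4 (also called REDD1) acts through the TSC complex under hypoxia and other stress. SESN1 and SESN2 are sestrins, stress-induced proteins that act on the GATOR branch, and SESN2 binds leucine. EIF4EBP1 is a substrate of the complex and blocks cap-dependent translation until it is phosphorylated. mTORC1 activity is set mostly by protein contacts and phosphorylation, which RNA counts do not show.

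The promoters of the 3 stress-input genes are shown because these genes moved in different directions between the groups. Each is the RefSeq window on GRCh38.p14 from 250 bases before to 50 bases after a transcription start, 300 bases in all, 5′ to 3′ on the strand of the gene. They lie at chr10:72273674-72273973 (plus strand) for DDIT4, chr6:109008939-109009238 (minus strand) for the SESN1 start nearest to the gene's 3′ end of the 3 starts listed, and chr1:28259268-28259567 (plus strand) for SESN2. Capitals mark the hypoxia core ACGTG in DDIT4 and a p53 response element decamer in SESN1.
DDIT4: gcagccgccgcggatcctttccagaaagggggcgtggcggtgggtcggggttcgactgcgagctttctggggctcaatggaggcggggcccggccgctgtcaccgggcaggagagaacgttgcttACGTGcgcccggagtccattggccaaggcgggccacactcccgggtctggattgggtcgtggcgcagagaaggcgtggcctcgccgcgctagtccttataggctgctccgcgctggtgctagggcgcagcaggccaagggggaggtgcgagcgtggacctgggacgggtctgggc
SESN1: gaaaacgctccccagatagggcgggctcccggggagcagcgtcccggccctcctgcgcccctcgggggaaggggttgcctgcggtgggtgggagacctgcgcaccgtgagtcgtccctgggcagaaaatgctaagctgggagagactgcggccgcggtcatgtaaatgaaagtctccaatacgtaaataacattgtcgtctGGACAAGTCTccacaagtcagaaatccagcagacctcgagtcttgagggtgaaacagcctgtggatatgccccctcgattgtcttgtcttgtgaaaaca
SESN2: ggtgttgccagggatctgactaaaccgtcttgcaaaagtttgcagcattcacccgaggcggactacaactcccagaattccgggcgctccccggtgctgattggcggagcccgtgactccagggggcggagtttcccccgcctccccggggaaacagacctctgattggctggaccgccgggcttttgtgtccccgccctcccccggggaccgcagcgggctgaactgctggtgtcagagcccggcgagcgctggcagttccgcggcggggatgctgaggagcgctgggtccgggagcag
The RefSeq windows of 8 members were searched on both strands for 8 motifs: the ATF4 composite core (TGATGNAA), the cyclic AMP response element (TGACGTCA), the E-box (CACGTG), the hypoxia core (ACGTG), the FOXO site (GTAAACA), the box bound by TBP (TATAAA), the GC box bound by Sp family factors (GGGCGG) and the p53 decamer. Every E-box also holds the hypoxia core. The DDIT4 match begins 125 bases before the start, and 21.4% of the 35116 promoters in the table hold that core. RHEB holds the core too, 81 bases before its start. The SESN1 decamer begins 49 bases before the start and is of a kind found in 6.6% of promoters, while the windows of the other 2 SESN1 starts hold 8 and 5 GC boxes and no other motif searched. SESN2 has 2 GC boxes, where 45.0% of promoters hold at least 1, and none of the other 7 motifs. TSC2, whose counts did not differ detectably in any comparison below, has the ATF4 core and the E-box, held by 3.6% and 7.3% of promoters, in 1 of its 2 windows. These matches describe letters in a window and not sites in use.

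Gene counts summed to 15770895 to 24873291 per library. RRM2 was at 485 ± 5.23 CPM (counts scaled to the TMM-adjusted library size; SD, n = 3) in control, 62.1 ± 1.86 in shRRM2 and 177 ± 3.00 in shRRM2/shp16, so the targeted gene was low in both knockdown groups and less so in the latter. CDKN2A was at 5.95 to 6.15, 5.97 to 6.79 and 3.93 to 4.57 CPM in the same order, for the whole gene and not the p16 transcript alone. The shRRM2/shp16 and shRRM2 cells thus differed in RRM2 level (log2 fold change 1.51) as well as in the p16 hairpin. In that comparison the parts of the p16 hairpin and of the weaker RRM2 knockdown cannot be told apart. All 8 fibroblast markers were counted, with a summed level of 26800 to 27700 CPM in control, 26300 to 27100 in shRRM2 and 22100 to 22700 in shRRM2/shp16. The sums hold changes in both directions. In shRRM2/shp16 versus control 2 of the 8 were called higher, COL3A1 the most (log2 fold change 1.08), and 5 lower, VIM the most (-1.32). Of all genes, 30.0% were higher and 32.4% lower. The 4 epithelial markers summed to at least 23.9 CPM in control, at most 13.4 in shRRM2 and at most 5.21 in shRRM2/shp16, with KRT5 at 0. That fall was in CLDN4 (means of 22.9, 10.7 and 2.37 CPM), while EPCAM passed no test and CDH1, under 1 CPM on average in each group, was called higher in shRRM2 (adjusted p 0.0194). The 4 endothelial markers summed to 2.56 to 3.35, 2.48 to 3.75 and 5.23 to 5.38 CPM, with KDR higher in shRRM2/shp16 than in shRRM2 (log2 fold change 1.43, adjusted p 3.2e-07), and the 4 leukocyte markers to at most 3.04 CPM, with CD3E at 0 in all libraries. Reads outside annotated exons were 17.6% to 18.9% of uniquely aligned reads in control, 27.7% to 28.8% in shRRM2 and 23.5% to 24.4% in shRRM2/shp16. This share and the fibroblast, epithelial and endothelial marker sums moved with the groups, and their part in the results below was not tested.

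In shRRM2 versus control, 8 of the 10 genes differed at an adjusted p under 0.05 (edgeR quasi-likelihood test, Benjamini-Hochberg over all tested genes), beside 60.9% of all tested genes. TSC1, SESN1 and SESN2 rose (3 genes, against 29.0% of all genes higher), and MTOR, RPTOR, RHEB, DDIT4 and EIF4EBP1 fell (5 genes, against 31.8% lower). In shRRM2/shp16 versus shRRM2, 6 of 10 differed beside 61.1% of all genes, with MTOR, RPTOR and DDIT4 higher (31.9% of all genes were higher) and RHEB, SESN2 and EIF4EBP1 lower (29.1%). In shRRM2/shp16 versus control, 6 of 10 differed beside 62.4% of all genes, with MTOR, TSC1, DDIT4 and SESN1 higher (30.0%) and RHEB and EIF4EBP1 lower (32.4%). The libraries of the groups compared did not overlap for 8, 7 and 6 members, beside 63.6%, 64.7% and 66.2% of all genes. These shares are near the background, so the number of changed members does not set the list apart. The comparisons share libraries in pairs and are not independent of each other. The member medians were -0.17, 0.03 and 0.02 on the log2 scale, beside 0.00, 0.01 and 0.01 over all tested genes. Most member changes were small. EIF4EBP1 in shRRM2 was the 1 member past 1.5-fold in the first comparison, DDIT4 in the second, and DDIT4 and EIF4EBP1 in the third, where 23.3%, 24.5% and 26.7% of all genes were called with at least that fold.

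**Figure D1:**
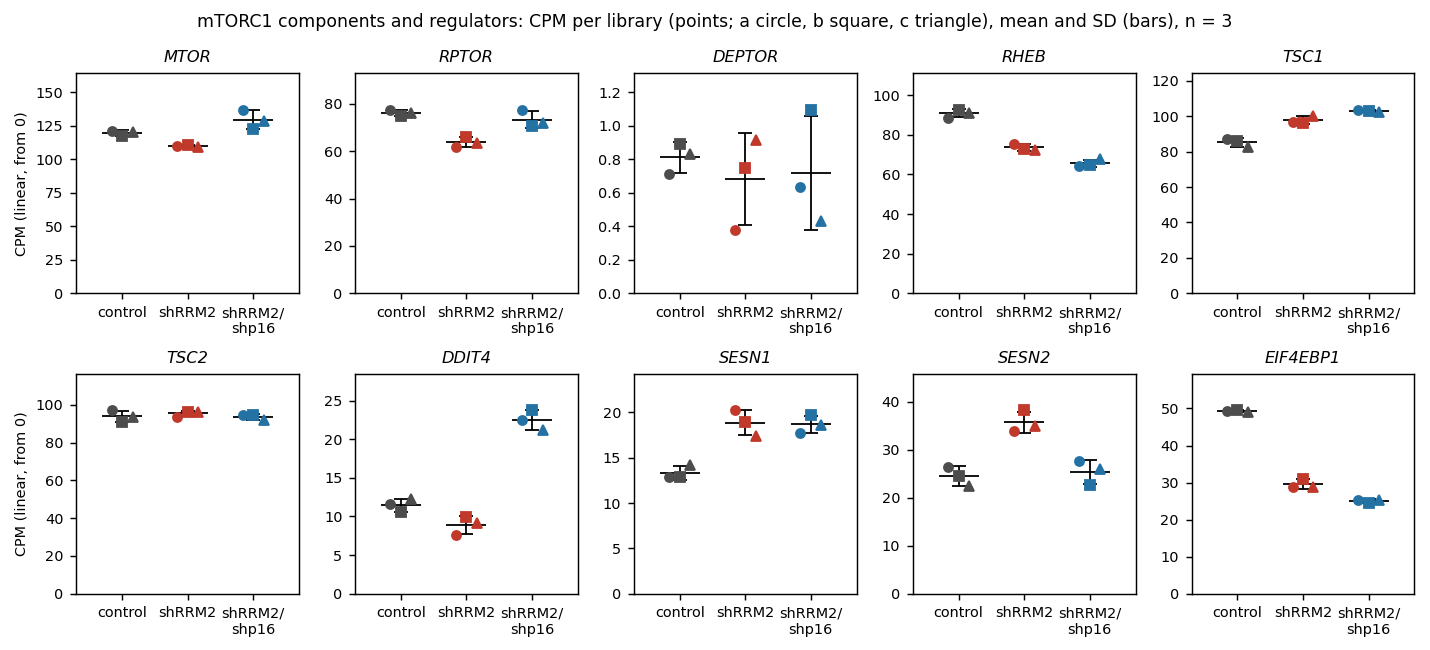
CPM of each of the 10 genes (vertical axis, linear from 0) in the 3 libraries of each group (points) with mean and SD (bars). DDIT4 is highest in the 3 shRRM2/shp16 libraries at 21.2 to 23.8 CPM, SESN2 is highest in the 3 shRRM2 libraries at 34.0 to 38.2 CPM, and EIF4EBP1 is highest in the 3 control libraries at 49.0 to 49.5 CPM.

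**Figure D2:**
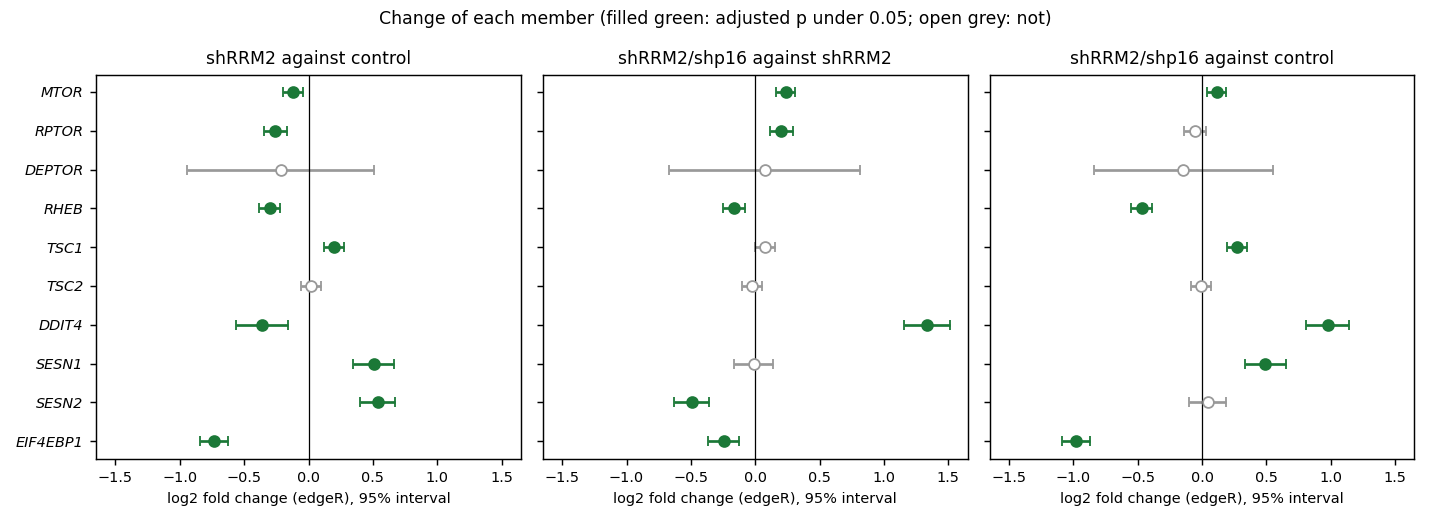
Fitted log2 fold change (horizontal axis) of the 10 genes in the 3 comparisons with 95% intervals; filled points have an adjusted p under 0.05. Most points lie within 0.6 of 0, DDIT4 reaches 1.34 in shRRM2/shp16 versus shRRM2, and EIF4EBP1 reaches -0.98 against control.

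The kinase gene MTOR (ENSG00000198793; GRCh38, GENCODE 29, chromosome 1, 11106535 to 11262507, minus strand) was slightly lower in shRRM2 and slightly higher in shRRM2/shp16. It was at 120.8, 117.1 and 120.5 CPM in control a, b and c, at 109.9, 110.8 and 108.9 in shRRM2, and at 136.7, 122.8 and 128.5 in shRRM2/shp16. The 3 groups do not overlap, with shRRM2 lowest, although the gaps are small and shRRM2/shp16 replicate a stands above the other two. The log2 fold change was -0.12 ± 0.04 (SE, 6 residual degrees of freedom) in shRRM2 versus control (adjusted p 0.00543), 0.24 ± 0.04 in shRRM2/shp16 versus shRRM2 (6.7e-07) and 0.11 ± 0.04 in shRRM2/shp16 versus control (0.00655). In bulk RNA, fewer cells of a type and less RNA per cell cannot be told apart. The decrease in shRRM2 was not past the threshold with library totals in place of TMM factors (-0.08, adjusted p 0.0732) or with limma on the authors' RPKM values (-0.07, adjusted p 0.359, in the 8 columns that match the counts; 1.2e-04 to 0.556 over all alternatives). The increase over control was not called without shRRM2/shp16 replicate a (0.08, adjusted p 0.0854; 1.8e-06 to 0.0854 over all alternatives).

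RPTOR (ENSG00000141564; chromosome 17, 80544819 to 80966371, plus strand), the scaffold, followed the same course with a clearer fall. It was at 77.4, 74.8 and 76.1 CPM in control, 61.7, 65.9 and 63.5 in shRRM2 and 77.4, 70.8 and 71.8 in shRRM2/shp16. The 3 shRRM2 libraries lie below the other 6, and the control and shRRM2/shp16 libraries overlap. Its log2 fold change was -0.26 ± 0.04 (adjusted p 2.6e-06) in shRRM2 versus control and 0.20 ± 0.04 (1.2e-04) in shRRM2/shp16 versus shRRM2. No difference from control was detectable in shRRM2/shp16, with -0.06 ± 0.04 (adjusted p 0.264) and a 95% interval of -0.14 to 0.03.

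DEPTOR (ENSG00000155792; chromosome 8, 119873717 to 120050913, plus strand), the bound inhibitor, was close to the limit of counting. It had 17, 16 and 14 reads in control, 6, 13 and 16 in shRRM2 and 12, 22 and 8 in shRRM2/shp16, or 0.38 to 1.1 CPM, and the groups overlap. No comparison was past the threshold (adjusted p 0.622, 0.880 and 0.737), and at this depth the 95% interval in shRRM2 versus control ran from -0.94 to 0.51 on the log2 scale.

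RHEB (ENSG00000106615; chromosome 7, 151466012 to 151520120, minus strand), the activator of the kinase, fell in both knockdown groups. It was at 88.6, 92.6 and 91.2 CPM in control, 75.5, 72.8 and 72.5 in shRRM2 and 64.5, 64.7 and 67.7 in shRRM2/shp16. The 3 groups are separate, with shRRM2/shp16 lowest. Fitted log2 fold changes were -0.30 ± 0.04 (adjusted p 1.8e-08) in shRRM2 versus control, then -0.17 ± 0.04 (7.3e-04) in shRRM2/shp16 versus shRRM2 and -0.47 ± 0.04 (9.5e-14) in shRRM2/shp16 versus control. The middle one was just outside the threshold with limma on the 8 matching RPKM columns (-0.12, adjusted p 0.0528). Its 3 processed pseudogenes held at most 4 reads each over all libraries beside 12796 for RHEB, and reads that aligned to more than 1 place are in neither count.

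TSC1 (ENSG00000165699; chromosome 9, 132891348 to 132946874, minus strand) rose in both knockdown groups, while its partner TSC2 (ENSG00000103197; chromosome 16, 2047465 to 2089487, plus strand) passed no test. TSC1 was at 87.0, 85.8 and 82.6 CPM in control, 96.7, 96.0 and 100.3 in shRRM2 and 103.5, 103 and 102.3 in shRRM2/shp16. All control libraries lie below the other 6. The log2 fold change of TSC1 was 0.20 ± 0.04 (adjusted p 2.2e-05) in shRRM2 and 0.27 ± 0.04 (2.6e-08) in shRRM2/shp16, both against control. Between the knockdown groups it was 0.08 ± 0.04 (adjusted p 0.0798), which passed without shRRM2 replicate c (0.09, adjusted p 0.0490), with library totals (0.14, 0.00173) and with limma on RPKM values (0.15 to 0.18). TSC2 was at 97.2, 91.1 and 93.4 CPM in control, 93.8, 96.5 and 96.2 in shRRM2 and 94.4, 94.7 and 91.9 in shRRM2/shp16, with the groups overlapping. Its 95% intervals were -0.06 to 0.10, -0.11 to 0.05 and -0.08 to 0.07 in the 3 comparisons. TSC2 shares 778 exonic bases with PKD1 and 402 with NTHL1 on the opposite strand. The libraries were stranded, but the strand setting of the counting is not given in the sources used here. With library totals, TSC2 was higher in shRRM2/shp16 than in control by 0.10 (adjusted p 0.0202), where the median of all genes stood at 0.12 and not 0.01.

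DDIT4 (ENSG00000168209; chromosome 10, 72273920 to 72276036, plus strand), whose promoter is printed above, had the largest change of any member. It was at 11.6, 10.5 and 12.2 CPM in control, 7.55, 9.92 and 9.12 in shRRM2 and 22.4, 23.8 and 21.2 in shRRM2/shp16, from 119 to 477 reads. The 3 groups are separate, and every shRRM2/shp16 library lies far above the other 6. DDIT4 rose 2.52-fold in shRRM2/shp16 versus shRRM2, a log2 fold change of 1.34 ± 0.09 (adjusted p 2.6e-17), and 6.56% of tested genes moved as far or farther. Against control the log2 fold change was 0.98 ± 0.08 (4.0e-14) in shRRM2/shp16 and -0.36 ± 0.10 (adjusted p 0.0018) in shRRM2. The decrease in shRRM2 was not past the threshold by limma on deposited RPKM, at -0.35 (adjusted p 0.077) in the 8 matching columns and -0.25 (0.219) in all 9 at a pseudocount of 0.1. DDIT4 shares 847 exonic bases with the antisense gene DDIT4-AS1, which had 1 read over all libraries.

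SESN1 (ENSG00000080546; chromosome 6, 108986437 to 109094819, minus strand) and SESN2 (ENSG00000130766; chromosome 1, 28259527 to 28282491, plus strand) rose by similar amounts in shRRM2, and only SESN2 was called lower again in shRRM2/shp16. SESN1 was at 12.9, 12.9 and 14.2 CPM in control, 20.2, 19.0 and 17.4 in shRRM2 and 17.8, 19.7 and 18.6 in shRRM2/shp16. The control libraries lie below the other 6, which overlap. The log2 fold change of SESN1 was 0.50 ± 0.08 (adjusted p 5.4e-07) in shRRM2 versus control, 0.49 ± 0.08 (4.7e-07) in shRRM2/shp16 versus control and -0.01 ± 0.08 (0.903) between the knockdown groups, with a 95% interval of -0.16 to 0.14. SESN2 was at 26.5, 24.6 and 22.4 CPM in control, 34.0, 38.2 and 35.0 in shRRM2 and 27.6, 22.8 and 25.9 in shRRM2/shp16. Here the shRRM2 libraries stand above the other 6, and control and shRRM2/shp16 overlap. For SESN2 the log2 fold change was 0.54 ± 0.07 (4.1e-09) in shRRM2 versus control, -0.49 ± 0.07 (2.3e-08) in shRRM2/shp16 versus shRRM2 and 0.04 ± 0.07 (0.616) in shRRM2/shp16 versus control, the last with an interval of -0.10 to 0.18. The interval of SESN1 between the knockdown groups does not reach that of SESN2 (-0.63 to -0.36), but the difference between the genes was not tested. With limma on all 9 RPKM columns at a pseudocount of 0.1 the rises in shRRM2 were 0.43 (adjusted p 0.0512) for SESN1 and 0.42 (0.0961) for SESN2, and the SESN2 fall was -0.27 (0.288). The column of shRRM2 replicate c in that table does not match its count file, and without it all 3 passed.

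EIF4EBP1 (ENSG00000187840; chromosome 8, 38030341 to 38060365, plus strand), the translation repressor, fell in shRRM2 and fell further in shRRM2/shp16. It was at 49.2, 49.5 and 49.0 CPM in control, 28.9, 31.0 and 28.9 in shRRM2 and 25.4, 24.4 and 25.3 in shRRM2/shp16. The groups are separate and the spread within each is small beside the gap to control. On the log2 scale EIF4EBP1 differed by -0.73 ± 0.05 (adjusted p 5.2e-16) in shRRM2 versus control, -0.25 ± 0.06 (3.7e-04) in shRRM2/shp16 versus shRRM2 and -0.98 ± 0.05 (1.9e-20) in shRRM2/shp16 versus control, which left 0.507 of the control level. In the last comparison 13.3% of tested genes moved as far or farther.

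Close relatives of the stress inputs and of EIF4EBP1 differed from them in direction in at least 1 comparison. DDIT4L, which encodes a related mTORC1 inhibitor, was at 7.38, 7.99 and 6.97 CPM in control, 11.2, 10.1 and 8.49 in shRRM2 and 2.38, 2.34 and 2.15 in shRRM2/shp16. It rose in shRRM2 (0.41 ± 0.11, adjusted p 0.0012) and fell 4.32-fold in shRRM2/shp16 versus shRRM2 (-2.11 ± 0.14, 1.8e-17), the opposite of DDIT4 in both. EIF4EBP2, a translation repressor of the same family, was at 242 to 249 CPM in control, 294 to 301 in shRRM2 and 155 to 159 in shRRM2/shp16. It rose in shRRM2, where EIF4EBP1 fell (0.28 ± 0.03, adjusted p 2.8e-11), and fell in shRRM2/shp16 versus shRRM2 (-0.93 ± 0.03, 1.6e-28), as EIF4EBP1 did. SESN3, the other sestrin, was lower in shRRM2/shp16 than in control (-0.33 ± 0.07, adjusted p 1.5e-04), where SESN1 was higher. That call was not made with limma on all 9 RPKM columns (adjusted p 0.104 to 0.218). SESN3 was at 17.9 to 19.5 CPM in shRRM2 beside 18.9 to 22.7 in control, and differed by -0.15 ± 0.07 (adjusted p 0.0737).

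**Figure D3:**
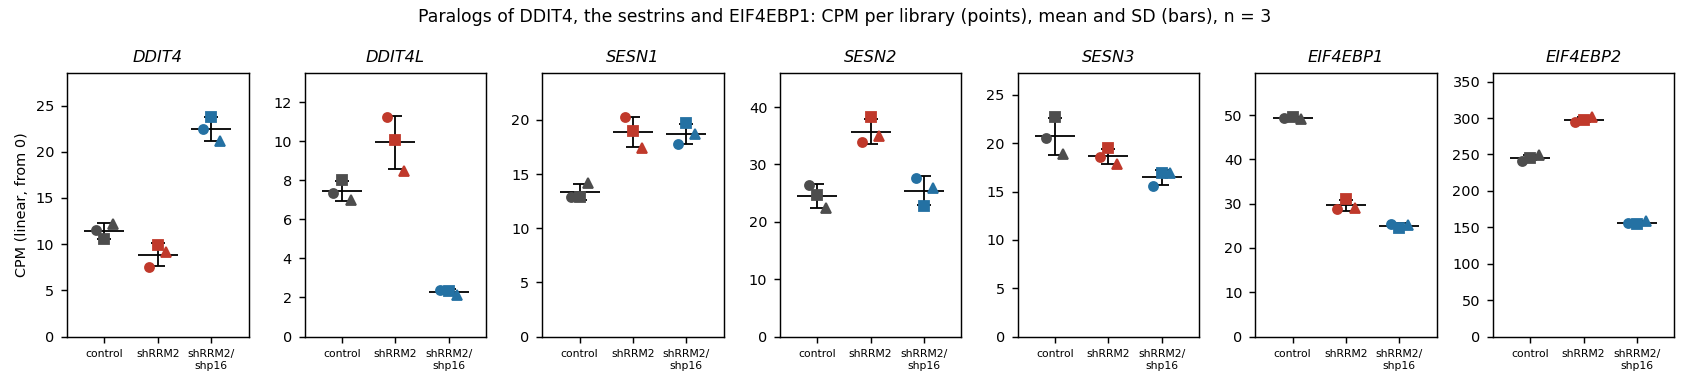
CPM (vertical axis, linear from 0) of DDIT4 and DDIT4L, the 3 sestrins, and EIF4EBP1 and EIF4EBP2 in the 3 libraries of each group (points) with mean and SD (bars). In shRRM2/shp16, DDIT4 is at its highest, 21.2 to 23.8 CPM, and DDIT4L at its lowest, 2.15 to 2.38 CPM.

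Levels of different genes were compared per length, as CPM per kilobase of the gene length implied by the deposited RPKM values (RPKM below). EIF4EBP1 and RHEB were the highest in every group, at 45.9 ± 0.23 and 25.7 ± 0.57 RPKM in control (SD, n = 3), 27.6 ± 1.15 and 20.8 ± 0.47 in shRRM2, and 23.3 ± 0.49 and 18.6 ± 0.50 in shRRM2/shp16. The gap between them narrowed, and the ranges stayed apart in each group. In control the order then ran MTOR (9.86), TSC1 (8.59), TSC2 (8.44), RPTOR (8.10), SESN2 (7.09), DDIT4 (5.55), SESN1 (2.60) and DEPTOR (0.31), and of these neighbours TSC1 overlapped TSC2 and TSC2 overlapped RPTOR. In shRRM2 SESN2 stood at rank 3, at 10.4 ± 0.65 RPKM, overlapping TSC1, and DDIT4 was at 4.31 ± 0.59, overlapping SESN1. In shRRM2/shp16 DDIT4 stood at rank 3, at 10.9 ± 0.63 RPKM, overlapping MTOR at 10.7 ± 0.58, which overlapped TSC1. RPTOR overlapped SESN2 in that group, and DEPTOR was last in all 3. The implied length equals the merged exons of GENCODE 29 for 7 members, not for RPTOR, TSC1 and TSC2, whose place in the order depends on the gene model. The authors' group values for the knockdown groups, taken to be FPKM, gave another order. By those values RHEB stood above EIF4EBP1 in both groups. SESN2 in shRRM2 and DDIT4 in shRRM2/shp16 stood below MTOR, RPTOR, TSC1 and TSC2. The order, the 2 highest genes and rank 3 included, therefore depends on the measure used.

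**Figure D4:**
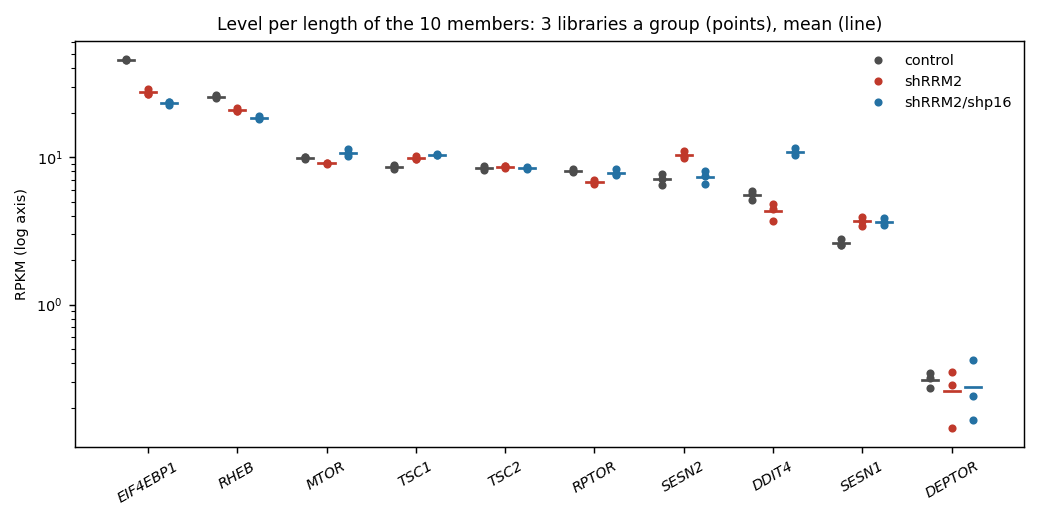
RPKM (vertical axis, log scale) of the 10 members, ordered by their control level, in the 3 libraries of each group (points) with the mean (line). SESN2 moves from 7.09 in control to 10.4 in shRRM2, and DDIT4 from 4.31 in shRRM2 to 10.9 in shRRM2/shp16.

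The other subunits and assembly factors of the complex were read from a list of 7 genes that includes MTOR, RPTOR and DEPTOR. In shRRM2 versus control 5 of 7 fell and 0 rose, where 31.8% of all tested genes fell and 29.0% rose, with a median of -0.26 on the log2 scale beside 0.00 for all genes. MLST8, a subunit shared by both mTOR complexes, was at 31.8, 29.9 and 27.9 CPM in control and 22.7, 23.8 and 21.5 in shRRM2 (-0.40 ± 0.06, adjusted p 5.8e-07). It was back at 28.5 to 29.6 CPM in shRRM2/shp16 (0.36 ± 0.06 against shRRM2, 6.4e-06). TELO2 and TTI1, which help assemble mTOR and related kinases, fell by 0.38 and 0.50 on the log2 scale in shRRM2, and TELO2 fell again in shRRM2/shp16 (-0.51 ± 0.07, adjusted p 2.3e-08). The inhibitor gene AKT1S1 passed no test, with log2 fold changes of -0.02, 0.01 and -0.01. Of the same 7, 4 rose and 1 fell in shRRM2/shp16 versus shRRM2, where 31.9% of all genes rose and 29.1% fell, with a median of 0.20, and 1 of the 4, TTI1, was not called without shRRM2 replicate b (adjusted p 0.119). RICTOR, the defining subunit of mTOR complex 2, rose from 56.5, 66.9 and 63.1 CPM in control to 84.2 to 90.7 in shRRM2 (0.51 ± 0.05, 9.6e-13) and 107 to 113 in shRRM2/shp16 (0.32 ± 0.04 against shRRM2, 2.8e-08). PRR5 and PRR5L, of the same complex, rose in shRRM2 (0.54 and 0.59) and fell in shRRM2/shp16 versus shRRM2 (-0.77 and -0.72). MAPKAP1, also of that complex, was not called in shRRM2 (-0.06, adjusted p 0.261) and fell in shRRM2/shp16 versus shRRM2 (-0.215 ± 0.044, 4.9e-05). Of these 4 genes, 3 rose and 0 fell in shRRM2, beside 29.0% and 31.8% of all genes. Between the knockdown groups 1 rose and 3 fell, beside 31.9% and 29.1%.

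In the nutrient branch, 8 of the 12 genes of GATOR and KICSTOR, which pass amino acid signals to the Rag GTPases, fell in shRRM2 and 1 rose, beside 31.8% and 29.0% of all genes, with a median of -0.30. MIOS, NPRL2 and KPTN had the largest decreases (-0.54, -0.45 and -0.50). In shRRM2/shp16 versus shRRM2, 6 rose and 2 fell, beside 31.9% and 29.1% of all genes, with a median of 0.20. DEPDC5 (0.48) and WDR24 (0.44) were among those that rose. SEC13 fell (-0.495 ± 0.036, adjusted p 4.2e-16), the largest called change of the list in that comparison. This branch holds both the inhibitory GATOR1 genes DEPDC5 and NPRL2 and the activating GATOR2 genes MIOS and WDR24. The 13 genes of the Rag GTPases and Ragulator were divided, with 5 higher and 4 lower in shRRM2 and 4 and 4 in shRRM2/shp16 versus shRRM2. FNIP2, a partner of folliculin, fell in the latter (-1.03 ± 0.06, adjusted p 7.1e-20) and LAMTOR2 rose (0.65 ± 0.06, 4.4e-12). TBC1D7, the small subunit of the TSC complex, fell in shRRM2 (-0.27) and rose in shRRM2/shp16 versus shRRM2 (0.28), and RHEBL1 had too few counts to be tested. Of 6 amino acid sensor genes, the sestrins included, 2 rose and 1 fell in shRRM2, and 2 rose and 2 fell in shRRM2/shp16 versus shRRM2. In the latter comparison SAMTOR, which senses S-adenosylmethionine, rose (0.57), as did CASTOR2 (0.59), a relative of the arginine sensor CASTOR1. The 1 sensor gene that fell in shRRM2 versus control, CASTOR2 (-0.21, adjusted p 0.0435), lost its call in most alternatives, among them DESeq2 (adjusted p 0.131) and the fits without control replicate a (0.0772), control replicate b (0.111), shRRM2 replicate a (0.171) or shRRM2 replicate c (0.0727), with adjusted p from 0.0308 to 0.171 over all of them.

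AMP-activated protein kinase (AMPK) restrains mTORC1 through TSC2 and RPTOR when energy is low. PRKAA2, a catalytic gene of AMPK, was at 13.9 to 14.6 CPM in control, 15.6 to 19.0 in shRRM2 and 37.6 to 37.9 in shRRM2/shp16, a rise of 1.10 ± 0.07 (adjusted p 8.5e-19) on the log2 scale over shRRM2. The other catalytic gene, PRKAA1, was more abundant, with means of 103.9 CPM in control, 126.9 in shRRM2 and 139.2 in shRRM2/shp16. It rose by only 0.13 ± 0.04 (adjusted p 0.0022) over shRRM2. The regulatory subunit gene PRKAG2 fell in the same comparison (-0.86 ± 0.07, 4.6e-15), and STK11, which encodes the AMPK-activating kinase LKB1, fell in shRRM2 (-0.38 ± 0.05, 2.0e-08). Of 9 tested genes of this list, 3 rose and 1 fell in shRRM2, beside 29.0% and 31.8% of all genes. In shRRM2/shp16 versus shRRM2, 5 rose and 3 fell, beside 31.9% and 29.1%. Among 13 tested growth factor input genes, 7 rose and 4 fell in shRRM2, beside 29.0% and 31.8%, with AKT1 lower (-0.37) and IRS2 higher (0.35). Between the knockdown groups 4 rose and 3 fell, beside 31.9% and 29.1%, and PDPK1 (-0.30) was among those that fell. Of 16 tested substrates and translation effectors, EIF4EBP1 included, 4 rose and 5 fell in shRRM2, beside 29.0% and 31.8% of all genes. In shRRM2/shp16 versus shRRM2, 4 of them rose and 9 fell, beside 31.9% and 29.1%, with a median of -0.2. In shRRM2 versus control the 9 of 16 called are near the 60.9% of all genes, and so are the called shares of the Rag and Ragulator and the amino acid sensor lists, so these counts do not set those lists apart. In shRRM2/shp16 versus shRRM2, 61.1% of all genes were called. In that comparison the S6 kinase genes parted, RPS6KB1 rising (0.42 ± 0.06) and RPS6KB2 falling (-0.58 ± 0.06).

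The members DDIT4, SESN2 and EIF4EBP1 are also known targets of ATF4, the transcription factor of the amino acid and unfolded protein responses. In a list of 15 genes made of ATF4 and its targets, these 3 included, 12 fell and 3 rose in shRRM2, beside 31.8% and 29.0% of all genes, with a median of -0.42 on the log2 scale. Of the 15, 10 rose and 5 fell in shRRM2/shp16 versus shRRM2, beside 31.9% and 29.1%, with a median of 0.45. Against control, shRRM2/shp16 had 6 of the 15 higher, 6 lower and 3 not called, beside 30.0% higher and 32.4% lower of all genes. ATF4 itself was at 161.9, 159.9 and 157 CPM in control, 118, 118 and 122 in shRRM2 and 191.5, 178.5 and 195 in shRRM2/shp16, with no overlap between the groups. Its log2 fold change was -0.42 ± 0.04 (adjusted p 9.6e-14) in shRRM2 versus control and 0.66 ± 0.03 (1.7e-20) in shRRM2/shp16 versus shRRM2. PSAT1, an enzyme of serine synthesis, was at 21.9 to 27.3 CPM in control, 10.3 to 11.1 in shRRM2 and 25.5 to 26.0 in shRRM2/shp16. ASNS, asparagine synthetase, was at 13.8 to 14.9, 6.40 to 7.69 and 12.8 to 15.1 CPM in the same order. Both fell and rose by about the same amount, PSAT1 by -1.23 and 1.27 and ASNS by -1.02 and 0.99. PHGDH, also on the list, fell by more than it rose (-1.12 and 0.45). DDIT4 was lower and then higher as these genes were. SESN2 and CHAC1, an enzyme of glutathione breakdown, did the reverse, CHAC1 with 1.15 ± 0.06 and -0.62 ± 0.05. EIF4EBP1, MTHFD2 and SLC7A5 fell in both comparisons.

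**Figure D5:**
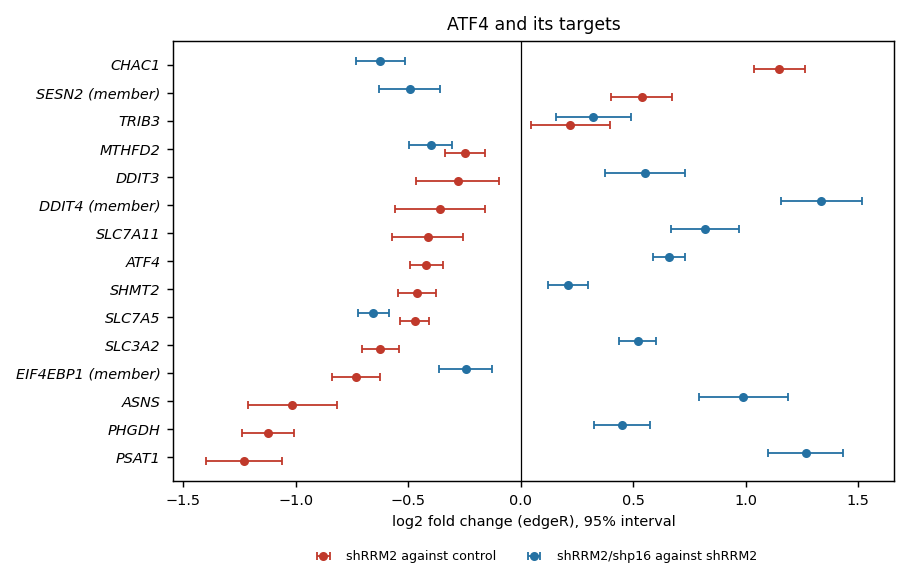
Fitted log2 fold change with 95% interval (horizontal axis) of ATF4 and 14 targets, ordered by their change in shRRM2 versus control, for that comparison and for shRRM2/shp16 versus shRRM2. ATF4, DDIT4, ASNS and PSAT1 lie below 0 in the first and above 0 in the second, SESN2 and CHAC1 the other way round.

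SESN1, SESN2 and DDIT4 are also on a list of 16 p53 target genes, of which 14 rose in shRRM2 versus control and 1 fell, beside 29.0% and 31.8% of all genes, with a median of 0.72. The 1 that fell was DDIT4. CDKN1A, the p21 inhibitor of cell cycle kinases, was at 499 to 516 CPM in control, 998 to 1057 in shRRM2 and 724 to 733 in shRRM2/shp16. MDM2, the p53 ubiquitin ligase, was at 208 to 233, 367 to 381 and 332 to 351 CPM in the same order. In shRRM2/shp16 versus shRRM2, 9 of the 16 fell and 3 rose, beside 29.1% and 31.9% of all genes, with a median of -0.14. SESN2 fell there, as CDKN1A did (-0.50 ± 0.03, adjusted p 6.2e-21), while SESN1 stayed within its spread. The CDKN1A decrease was not called with limma on all 9 RPKM columns (adjusted p 0.0533 to 0.137). Against control, 14 of the 16 were still higher in shRRM2/shp16 and 1 was lower, with a median of 0.6. Of all genes, 30.0% were higher and 32.4% lower in that comparison. DDIT4 also belongs to a list of 11 hypoxia targets, and all groups were grown at the same 2% oxygen. In shRRM2/shp16 versus shRRM2, 4 of the 11 rose and 6 fell, beside 31.9% and 29.1% of all genes. Those that rose were DDIT4, VEGFA (0.71), CA9 (1.68) and ADM (0.58). SLC2A1 (-1.26), PDK1 (-0.75) and LDHA (-0.65) were among those that fell. VEGFA, ADM, MTHFD2, SLC7A5, PRKAA1 and MAPKAP1 were named after their values were seen.

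Among genes that mTORC1 is known to regulate through TFEB, 8 of 12 tested lysosome and autophagy genes rose in shRRM2 and 1 fell, beside 29.0% and 31.8% of all genes, with a median of 0.43. GABARAPL1, an autophagosome protein, rose in shRRM2 (0.97 ± 0.04, adjusted p 4.6e-26) and again in shRRM2/shp16 (0.46 ± 0.03 against shRRM2, 2.2e-16). Between the knockdown groups 7 of the 12 fell and 3 rose, beside 29.1% and 31.9% of all genes, with a median of -0.12. Of 11 SREBP targets, genes of lipid synthesis and uptake downstream of mTORC1, 4 rose and 5 fell in shRRM2, beside 29.0% and 31.8% of all genes. In shRRM2/shp16 versus shRRM2, 2 rose and 8 fell, beside 31.9% and 29.1%, with a median of -0.31. SCD, the stearoyl desaturase, fell in both comparisons (-0.51 and -0.76).

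DDIT4 and EIF4EBP1 were the members that changed at least 1.5-fold past the threshold in a comparison, and the genes whose log2 CPM followed theirs most closely over the 9 libraries were sought among 9935 genes. For DDIT4 they were FBXO21 (Pearson r 0.9935), UBAC2 (0.9928) and BAIAP2-AS1 (0.992), and for EIF4EBP1 they were FEN1 (0.9984), TUBA1B (0.9982) and TRIP13 (0.9981). The 9 points fall into 3 groups, so these values mostly describe the 3 group means, and 301 and 621 genes had an r above 0.95.

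For shRRM2/shp16 versus shRRM2 the authors made their own test. The authors' deposited table calls DDIT4 higher (log2 fold change 1.67, q 4.4e-04) and RHEB (-0.26, q 0.011), SESN2 (-0.48, q 4.4e-04) and EIF4EBP1 (-0.23, q 8.4e-04) lower. In the authors' deposited table MTOR (0.29, q 0.143) and RPTOR (0.40, q 0.105) have the same direction as in the counts and are not called. TSC1 (0.14), TSC2 (-0.03), SESN1 (0.02) and DEPTOR (q 1) are not called in the authors' deposited table, and were not called from the counts.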

How the data were processed

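Libraries were stranded total RNA with ribosomal RNA removed, per the labels' protocols. The authors deposited, for each library, raw counts of reads by Ensembl gene. The authors also deposited a table of log2 values, which back-calculation from the counts shows to be log2 of 1 plus RPKM on a smaller scale. Per the file headers this table holds Cuffdiff columns for shRRM2/shp16 versus shRRM2, which are group values taken to be FPKM, log2 fold change, a test score, p-value and q-value. The FPKM and score columns are not printed here. The submitters' processing notes name TopHat2 2.0.9, Cufflinks 2.0.2 and Cuffdiff. The counting strand is not given in the sources used here. The log2 RPKM column of shRRM2 replicate c matches its counts for 5.85% of genes, and the other 8 columns match fully. There were 0 columns of values without a sample. Lines that name no gene (no feature 17.6% to 28.8% of uniquely aligned reads, ambiguous 3.74% to 6.02%) stayed out of library sizes and tests.

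Counts were tested with edgeR 4.0.16 (filterByExpr, TMM, 1 quasi-likelihood fit over all 9 libraries, two-sided, Benjamini-Hochberg over 16561 genes holding 99.8% of counts, threshold 0.05). The common biological coefficient of variation was 0.027. SE and 95% intervals were derived from each F statistic, the intervals with the total degrees of freedom of the fit, residual plus prior. Symbols came from the authors' table, and positions from GENCODE 29, which held 56591 of 64253 identifiers. Promoters came from RefSeq on GRCh38.p14. Read counts without molecular identifiers cover counting error only. On simulated counts edgeR recovered 170 of 196 changed genes (86.7%) with 10 false calls among 16133 genes. In shRRM2 versus control 60.9% of all tested genes were called. How TMM scaling and the rate of false calls hold with so large a share of changed genes was not tested. Alternatives were RLE factors, DESeq2 1.42.0, other low-count filters, 6 libraries, a replicate block, leaving out each library, limma 3.58.1 on log2 RPKM with a pseudocount of 0.1 or 1, and, chosen after seeing the data, the 8 matching columns and library totals. Same-letter libraries had correlations of deviations from group means of -0.02 to 0.05, so letters were not taken as pairs.

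The members and lists were chosen with earlier results of these data known. Named genes were the members, 11 fixed genes, and in each list up to 3 genes with the largest called change in shRRM2 versus control and, again, in shRRM2/shp16 versus shRRM2. A gene that the naming rule selects is not reported here.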

Additional observations from a re-analysis of the deposited data

How the results depend on the processing

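Of 494 values for the 10 members under alternative settings, 439 kept their sign and side of the threshold, 30 changed sign without a call in either fit, 18 were no longer past the threshold, 6 newly passed it and 1 changed sign with a call. The 30 were of RPTOR, DEPTOR, TSC2, SESN1 and SESN2, each in comparisons where it was not called. The 1 was TSC2 in shRRM2/shp16 versus control, 0.10 with library totals (adjusted p 0.0202), a setting that put the median of all genes at 0.12, so that small member changes depend on the scaling. With limma on the 9 RPKM columns, shRRM2 versus control called 6570 genes and 4 members at a pseudocount of 0.1, 6506 genes and 4 members at 1, and 6664 genes and 6 members where the mean RPKM was at least 1, in place of 10079 genes and 8 members. The 8 matching columns called 7700 genes and 6 members. The share of calls that were higher went from 52.3% to 62.5% in shRRM2/shp16 versus shRRM2 and from 48.1% to 59.1% against control with limma, and to 59.7% against control with library totals. Leaving out each library in turn gave 8, 6 to 7 and 5 to 6 members called in the 3 comparisons. With the replicate block, 10101, 10134 and 10388 genes and 8, 6 and 6 members were called, and no member call changed. DEPTOR had no value where 10 counts in every library or a mean RPKM of 1 was required, and depth limits what can be said of it. Of 3234 values for the other genes named by the rule, 2983 kept their sign and side of the threshold and 55 changed sign without a call in either fit. Of the rest, 181 were no longer past the threshold, 9 newly passed it and 6 changed sign with a call. Those 6 were of GDF15 in shRRM2/shp16 versus shRRM2 with limma on 9 columns (0.05), and of SREBF2, LAMP1 and AKT1S1 in shRRM2/shp16 versus control with library totals (0.10, 0.07 and 0.10). SESN3 in shRRM2/shp16 versus shRRM2 and TRIB3 in shRRM2 versus control lost their calls under many settings (adjusted p up to 0.376 and 0.162).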
